A study of Mus musculus with 12 samples.

Results

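The 10 genes described here are markers of fibroblasts, the connective tissue cells used as feeder layers under mouse embryonic stem cells (mESC), and none of them encodes a collagen. They were chosen by symbol: Acta2, Tagln, Postn, Lum, Dcn, Fbln2, Fbn1, Loxl1, Thy1 and Twist1. Each symbol matched 1 Ensembl gene, so that 10 of the 39179 counted genes were followed through 12 total RNA libraries.

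The libraries came from 2 experiments on signalling by bone morphogenetic proteins (BMP). In the reporter experiment, mESC of the genotype BRE-GFP, which make GFP under a BMP response element (BRE), were kept in FCS and Lif on feeders and sorted on GFP and on SSEA1, a surface antigen of mouse pluripotent cells. It gave 3 BRE-positive and 3 BRE-negative libraries, on a mixed CBA and C57Bl/6 background, collected as pairs at 3 times (collections 1, 2 and 3). In the knockout experiment, 4 KO libraries (Smad1/5 -/-) and 2 FL libraries (Smad1/5 fl/fl, the unrecombined alleles), on a mixed CD-1, 129/Ola and C57Bl/6 background, came from mESC grown in 2i and Lif on gelatin, with no feeders named. Each of 2 parental lines gave 2 KO and 1 FL library, but the labels do not tie a library to a line. The sources used here give neither the sort gates nor the source, sex or treatment of the feeders. Library totals lay between 25862573 and 37079106 counts in the BRE-positive group, 29804485 and 35044852 in the BRE-negative group, 30117843 and 37319846 in the KO group, and 33272807 and 35736653 in the FL group.

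Fibroblasts secrete and crosslink the extracellular matrix, and those that become contractile add a cytoskeleton shared with smooth muscle. Feeder layers are fibroblasts that no longer divide, on which stem cell colonies sit and which release matrix proteins and cytokines into the culture. Some proteins used as fibroblast markers are also made by other cells: in the mouse, THY1 is present on neurons and thymocytes, and TWIST1 acts in the early mesoderm and neural crest.

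The libraries were those of pluripotent cells in both experiments, with 14035 to 25303 counts of Pou5f1, the gene of the pluripotency factor OCT4, in the BRE libraries and 27193 to 33206 in the Smad1/5 libraries. Smad1 had 373 to 619 counts in the KO libraries, against 643 and 665 in the FL libraries, and Smad5 had 880 to 1176 in the KO libraries, against 1136 and 1153 in the FL libraries. The deleted parts of the genes were not given in the sources used here. These counts therefore do not check the labels. Y-linked genes, listed because the sex of a feeder can differ from that of the stem cells, had at most 1 count each in any Smad1/5 library, whereas Eif2s3y had 7 to 45 and Ddx3y 6 to 31 in the BRE libraries.

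The 10 genes lie on 7 chromosomes of GRCm38. The proteoglycan genes Dcn (chr10:97479609-97518143) and Lum (chr10:97565128-97572703) are neighbours on the plus strand of chromosome 10, and Tagln, Loxl1 and Thy1 lie apart on chromosome 9. For 7 genes, no 50-base stretch of the longest transcript recurred in another annotated gene. In Acta2, 0.352% of such stretches also lay in other actin genes or pseudogenes. In Fbn1, 20.1% lay in Gm9913, on the opposite strand, which had at most 1 count in any library. In Tagln, 48.3% lay in opposite-strand genes, mainly Gm48529, which was not among the 39179 counted genes. The others of these stretches lay in 108 exon bases of Pcsk7, which had 319 to 515 counts in every library. The sources used here do not give the strand setting of the counting, and low Tagln values may hold reads of those genes.

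Promoters, taken as the 250 bases before and 50 after a gene's start, are shown for Acta2 and Fbln2, which were lower in BRE-positive cells, and for Postn, which was near 0 in the cells grown without feeders. The sequences are RefSeq's, on GRCm38.p6, written 5′ to 3′ on the gene's strand, and capitals mark motif matches found by letter search on both strands. The motifs were TATAAA and TATATA, which overlap in Postn, and the CArG box bound by serum response factor, a regulator of actin genes, in its strict form and with 1 C or G among its central bases, and GGCGCC, a GC-rich motif bound by SMAD1 and SMAD5. The relaxed form was added after the sequences had been seen.
Acta2, chr19:34255324-34255623, minus strand: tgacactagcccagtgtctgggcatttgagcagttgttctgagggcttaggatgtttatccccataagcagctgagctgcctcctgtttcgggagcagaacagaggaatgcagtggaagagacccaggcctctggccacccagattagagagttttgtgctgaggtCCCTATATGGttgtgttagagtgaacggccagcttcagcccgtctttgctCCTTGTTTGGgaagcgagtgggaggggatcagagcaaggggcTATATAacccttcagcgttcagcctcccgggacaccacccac
Fbln2, chr6:91212514-91212813, plus strand: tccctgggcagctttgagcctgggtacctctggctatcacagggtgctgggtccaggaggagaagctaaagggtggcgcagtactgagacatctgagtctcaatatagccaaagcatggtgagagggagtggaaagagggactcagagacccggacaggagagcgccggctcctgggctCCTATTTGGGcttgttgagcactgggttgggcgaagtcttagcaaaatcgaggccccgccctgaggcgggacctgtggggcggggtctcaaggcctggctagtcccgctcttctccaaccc
Postn, chr3:54360857-54361156, plus strand: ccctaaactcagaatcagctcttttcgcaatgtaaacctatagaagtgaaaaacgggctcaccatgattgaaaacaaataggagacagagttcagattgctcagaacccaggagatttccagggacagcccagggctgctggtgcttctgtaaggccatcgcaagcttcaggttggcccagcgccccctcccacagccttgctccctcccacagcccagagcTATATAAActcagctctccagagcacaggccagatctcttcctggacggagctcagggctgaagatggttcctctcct
Counted with the start as 1 and the base before it as -1, Acta2 held relaxed CArG boxes at -84 and -34 and TATATA at 9, and Fbln2 held a relaxed CArG box at -71. Postn held TATATA at -28 and TATAAA at -26. These positions hold for the RefSeq starts only. The outermost GENCODE start of Acta2, base 34255590, lies inside its window, and that of Fbln2, base 91212455, lies before its window. Among 32851 promoters of that length, the strict CArG box occurred in 1.63%, the relaxed one in 8.50%, TATAAA in 13.6%, TATATA in 5.67% and GGCGCC, which was in none of the entries of these genes, in 11.9%. A match of letters is a description and does not show binding, and no match says only that these letters are not in the window. Entries were found for 5 of the 10 genes: Twist1 had TATAAA at -126, Fbn1 and a second, upstream Postn start had none of these motifs, and Tagln, Lum, Dcn, Loxl1 and Thy1 are named only.

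The first comparison asked how the markers differed between cells sorted as positive and as negative for the BMP reporter. In BRE-positive cells, 9 of the 10 markers had a lower fitted level than in BRE-negative cells, and 3 were called lower: Acta2, Tagln and Fbln2. The contractile gene Acta2 differed most, by 2.18-fold. Thy1 was the only marker with a higher fitted level in BRE-positive cells, and its difference did not pass the test. Calls rest on edgeR's quasi-likelihood test, fitted with a block for each pair, at a Benjamini-Hochberg adjusted p under 0.05 over 15435 genes. Of all genes tested, 2.97% were called, 1.02% lower and 1.96% higher, and the median log2 fold change of the markers was -0.41, beside -0.00088 over all genes tested. In bulk libraries, fewer fibroblasts among the sorted cells and less RNA of these genes per cell cannot be told apart.

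Acta2 encodes smooth muscle alpha-actin, the actin of contractile fibroblasts. It had 12, 146 and 53 counts in the BRE-positive libraries of collections 1, 2 and 3, against 45, 232 and 136 counts in the BRE-negative libraries. As CPM, counts scaled to a common depth by TMM, these were 0.373, 3.94 and 2.00 in BRE-positive cells and 1.25, 7.60 and 4.55 in BRE-negative cells, with means of 2.10 ± 1.79 and 4.47 ± 3.17 CPM (SD, n = 3 each). The groups overlapped because the collections differed more than the sorted fractions, but within each collection the BRE-positive library was the lower. The ratio of BRE-positive to BRE-negative was 0.297 (exact 95% counting interval 0.143 to 0.571) in collection 1, 0.518 (0.419 to 0.640) in collection 2 and 0.440 (0.314 to 0.608) in collection 3. The log2 fold change was -1.12 ± 0.17 (SE), with an adjusted p of 0.0036 in edgeR's quasi-likelihood test. It lay between -1.33 and -1.02 when each collection was left out in turn and passed the test each time.

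Tagln encodes transgelin, a protein that binds and bundles actin filaments in the same contractile cells. It had 46, 278 and 134 counts in the BRE-positive libraries, against 109, 272 and 245 counts in the BRE-negative libraries. Its mean was 4.66 ± 3.06 CPM in BRE-positive cells and 6.72 ± 3.21 CPM in BRE-negative cells (SD, n = 3 each), and it was lower in BRE-positive cells in all 3 collections once scaled for depth. The log2 fold change of -0.57 ± 0.14 (SE) passed at an adjusted p of 0.0495 in edgeR's quasi-likelihood test. That call was lost without collection 3 (adjusted p 0.14), with DESeq2 (0.076), with RLE scaling (0.053) and with an offset for gene length (0.070).

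Limma on log2(TPM + 1) called no gene at all between the fractions, so that it could call none on this or a later list. Of 17 further smooth muscle genes, 15 were tested and none was called by edgeR or DESeq2, with 5 at an unadjusted p under 0.05 in edgeR. Their median log2 fold change was 0.03, and 6 of 15 were negative, beside 50.3% of all genes tested. The most abundant over the 12 libraries were Tagln2, a transgelin made in many cell types, at 0.19 ± 0.06 (SE), and Tpm4, a tropomyosin of non-muscle cells, at 0.06 ± 0.05 (SE). Without collection 1, Tagln2 was called higher in BRE-positive cells, at 0.27 with an adjusted p of 1.2e-06 in edgeR's quasi-likelihood test.

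Lum and Dcn encode lumican and decorin, small leucine-rich proteoglycans that bind collagen fibrils. Lum was the rarest marker in the BRE libraries, with 2, 24 and 24 counts in BRE-positive cells, against 11, 30 and 51 counts in BRE-negative cells. Dcn had 13, 84 and 92 counts in BRE-positive cells, against 45, 111 and 111 counts in BRE-negative cells. Both were lower in the BRE-positive library of every collection, and neither passed the test: the log2 fold change was -0.90 ± 0.31 (SE) for Lum, with an adjusted p of 0.15, and -0.57 ± 0.22 (SE) for Dcn, with an adjusted p of 0.18 (edgeR's quasi-likelihood test). In collection 3 the Dcn ratio of 0.935 had a counting interval of 0.701 to 1.24, which includes 1, and without that collection Dcn passed at -0.94 with an adjusted p of 0.037. Of 9 other proteoglycans of the class, 4 were tested and none was called by edgeR or DESeq2, nor did any have an unadjusted p under 0.05 in edgeR. The most abundant over the 12 libraries were Bgn (biglycan), at -0.21 ± 0.12, and Podn (podocan), at -0.83 ± 0.42 (log2 fold change ± SE).

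Fbln2, Fbn1 and Loxl1 belong to the elastic fibre: FBLN2 (fibulin-2) bridges matrix proteins, FBN1 (fibrillin-1) forms the microfibrils, and LOXL1 crosslinks elastin. Fbln2 had the most counts of the 10 markers, with 520, 1554 and 950 in the BRE-positive libraries, against 911, 1572 and 1382 in the BRE-negative libraries. It averaged 31.3 ± 13.5 CPM in BRE-positive cells and 41.0 ± 13.8 CPM in BRE-negative cells (SD, n = 3 each). The ratio of the fractions was 0.636, 0.814 and 0.776 in collections 1, 2 and 3, and no counting interval reached 1. The log2 fold change was -0.41 ± 0.07 (SE), with an adjusted p of 0.0085 in edgeR's quasi-likelihood test, and the call held without each collection. At this depth a difference of 1.33-fold in Fbln2 was called, while the larger fitted differences of Lum and Dcn were not.

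Fbn1 had 253, 676 and 519 counts in the BRE-positive libraries, against 365, 535 and 643 counts in the BRE-negative libraries. It was lower in BRE-positive cells in 2 of 3 collections, and its log2 fold change of -0.12 ± 0.09 (SE) had an adjusted p of 0.53 in edgeR's quasi-likelihood test. Loxl1 had 101, 139 and 96 counts in the BRE-positive libraries, against 114, 161 and 121 counts in the BRE-negative libraries, which gave -0.23 ± 0.14 (SE) with an adjusted p of 0.44. Loxl1 was lower in BRE-positive cells in all 3 collections, at ratios of 0.987, 0.711 and 0.895. The counting interval excluded 1 in collection 2 alone (0.563 to 0.898). Neither Fbn1 nor Loxl1 passed the test. Of 17 other elastic fibre genes, all tested, 2 were called lower and none higher. Lox, which encodes the lysyl oxidase that crosslinks collagen and elastin, fell by 0.54 ± 0.13 (SE, log2, adjusted p 0.047), and Fbln1, the gene of fibulin-1, fell by 0.34 ± 0.07 (SE, log2, adjusted p 0.018) in edgeR's quasi-likelihood test. Lox lost its call with DESeq2 (adjusted p 0.061), RLE scaling (0.052) and a length offset (0.052), and Fbln1 without collection 3 (0.069). Fbln1 was not higher in the cultures on feeders: it had 22.1 to 36.3 CPM in the BRE libraries, against 37.3 to 64.6 CPM without feeders.

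Postn encodes periostin, a secreted protein that links matrix to cell surface integrins. It had 24, 296 and 181 counts in the BRE-positive libraries, against 40, 281 and 316 counts in the BRE-negative libraries. Collection 1 was the low one in both fractions, at 0.745 CPM in BRE-positive and 1.11 CPM in BRE-negative cells, beside 6.84 to 10.6 CPM in the other libraries. The log2 fold change of -0.42 ± 0.13 (SE) did not pass (adjusted p 0.11, edgeR's quasi-likelihood test), but did so without collection 1, at -0.39 with an adjusted p of 0.0088. Of 18 other matricellular and adhesive matrix genes, all tested, 3 were called lower and none higher. Thbs1 (thrombospondin-1) fell by 0.56 ± 0.10 (adjusted p 0.0090), Serpinf1, which encodes the secreted factor PEDF, by 0.67 ± 0.17 (adjusted p 0.046), and Cyr61, a secreted integrin ligand, by 0.21 ± 0.05 (adjusted p 0.048), on the log2 scale ± SE. The call of Thbs1 held without each collection, but DESeq2 called none of the 3 (adjusted p 0.13, 0.16 and 0.073 in the same order). Serpinf1 lost it without collection 3 (adjusted p 0.16), and Cyr61 without collection 2 (0.23) or 3 (0.27), in edgeR's quasi-likelihood test.

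Thy1 encodes the surface glycoprotein CD90, and Twist1 a transcription factor of mesenchymal cells. Thy1 had 177, 291 and 210 counts in the BRE-positive libraries, against 188, 231 and 155 counts in the BRE-negative libraries. Scaled for depth it was higher in BRE-positive cells in all 3 collections, by ratios of 1.05, 1.04 and 1.53, and the counting interval excluded 1 in collection 3 alone (1.24 to 1.89). Its log2 fold change was 0.25 ± 0.13 (SE, adjusted p 0.32, edgeR's quasi-likelihood test). Twist1 had 46, 68 and 41 counts in the BRE-positive libraries, against 42, 65 and 63 counts in the BRE-negative libraries, and was lower in BRE-positive cells in 2 of 3 collections. Its log2 fold change was -0.13 ± 0.20 (SE, adjusted p 0.79, edgeR's quasi-likelihood test). Of 11 other fibroblast surface genes, 10 were tested, and Nt5e, the gene of the ecto-enzyme CD73, was called higher, at 0.66 ± 0.10 (SE, log2, adjusted p 0.0029), as it was without each collection. Of 12 other mesenchymal transcription factors, 9 were tested and none was called by edgeR or DESeq2 (3 at an unadjusted p under 0.05 in edgeR). The most abundant over the 12 libraries were Zeb1, a repressor of epithelial genes, at 0.21 ± 0.08, and Prrx2, a homeobox gene of limb and facial mesenchyme, at -0.06 ± 0.16 (log2 fold change ± SE).

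**Figure D1:**
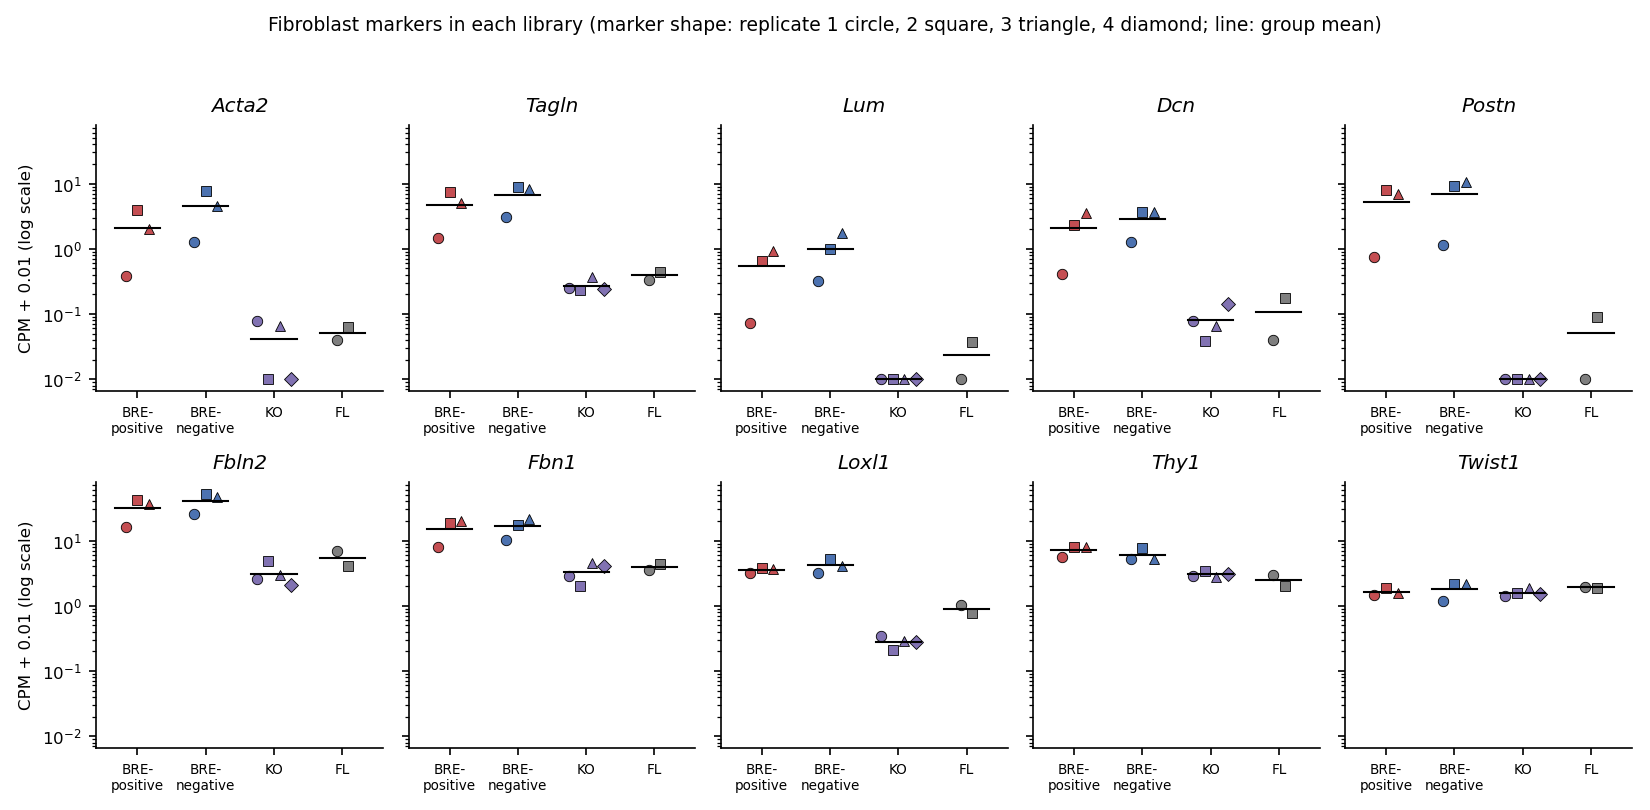
Level of each marker in every library, as CPM + 0.01 on a log scale, with symbols by replicate number and lines at the group means. The Twist1 values of the BRE and Smad1/5 libraries overlap. The other panels show higher BRE values. Of all genes tested between the cultures, 63.2% were called, 31.5% higher, so that the number of such panels supports nothing. In most panels collection 1 (circles) is the lowest of its BRE group.

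The level of the markers moved with the collection as well as with the fraction. Collection 2 over collection 1 was 10.6-fold for Acta2, 10.7-fold for Postn, 10.4-fold for Lum, 5.62-fold for Dcn and 5.25-fold for Tagln in BRE-positive cells. In BRE-negative cells the same ratios were 6.06, 8.26, 3.21, 2.90 and 2.93. Fbln2 and Fbn1 differed by 2.60-fold and 2.32-fold between those collections in BRE-positive cells, and Loxl1, Thy1 and Twist1 by 1.20-fold to 1.43-fold. The median log2 ratio of BRE-positive to BRE-negative over the 10 markers was -0.62 in collection 1, -0.27 in collection 2 and -0.41 in collection 3. In these collections 8, 8 and 9 markers were lower in BRE-positive cells. The median was thus widest in collection 1, where most markers were rarest and some ratios rest on few counts. Single markers differed: Loxl1 gave -0.02, -0.49 and -0.16 in that order, and Twist1 0.29, -0.21 and -0.45. Postn (-0.63) and Thy1 (0.61) were widest in collection 3. Without the pair as a block, no marker and no gene was called by edgeR (343 genes at an unadjusted p under 0.05), and limma on log2(TPM + 1), with the pair, called none of either (4189 genes at an unadjusted p under 0.05).

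**Figure D2:**
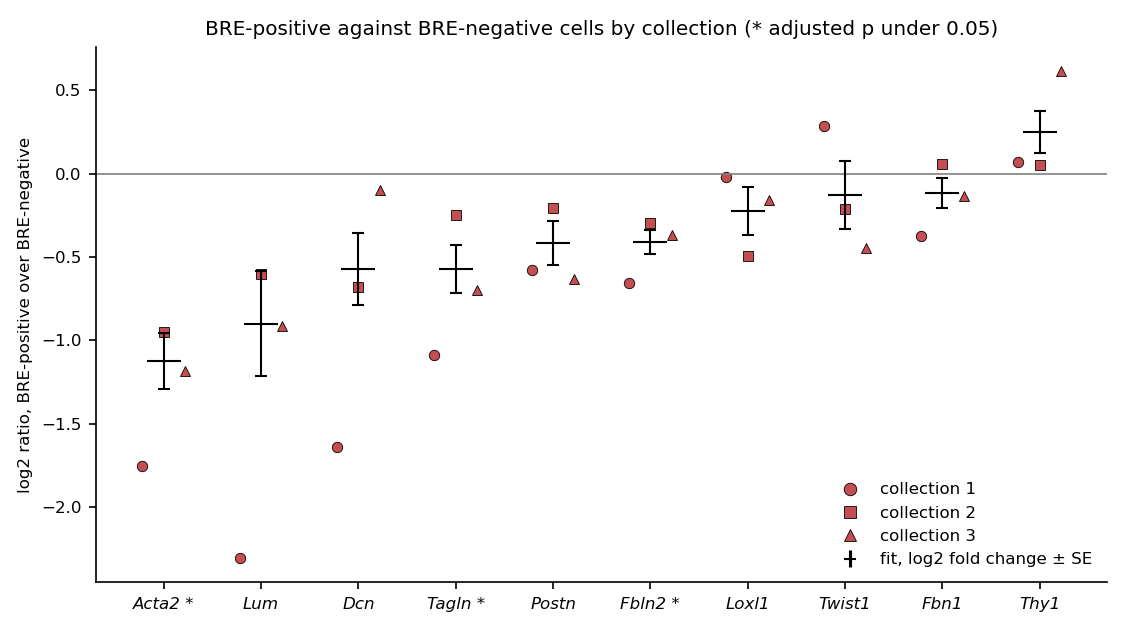
Log2 ratio of BRE-positive to BRE-negative for each marker in the 3 collections (symbols), with the log2 fold change and its SE from edgeR (bars). Acta2 lies below 0 in each collection, at -1.75, -0.95 and -1.19, whereas Thy1 lies above 0, at 0.07, 0.05 and 0.61.

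The markers did not keep a fixed ratio to each other. In collection 1, BRE-positive cells had 12 Acta2 and 24 Postn counts, against 45 and 40 in BRE-negative cells. Acta2 counts per 100 Postn counts were 49.3 and 29.3 in the BRE-positive libraries of collections 2 and 3, against 82.6 and 43.0 in the BRE-negative libraries. Per 100 counts of Col1a2, a chain of type I collagen, there were 4.60, 12.2 and 7.28 Acta2 counts in BRE-positive cells, against 7.80, 20.5 and 12.1 in BRE-negative cells. Postn per 100 Col1a2 counts was 9.20, 24.7 and 24.9 in BRE-positive cells, against 6.93, 24.9 and 28.2 in BRE-negative cells. Fbln2 per 100 Col1a2 counts was 199, 130 and 130 in BRE-positive cells, against 158, 139 and 123 in BRE-negative cells. Acta2 was thus lower in BRE-positive cells relative to Postn and Col1a2 in every collection. The ratio of Postn to Col1a2 was higher in collection 1, nearly equal in collection 2 and lower in collection 3. That of Fbln2 to Col1a2 was lower in collection 2 only. These ratios were chosen after the values had been seen and carry no test.

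Genes of the other cells that a sorted culture could hold are given beside these results. The summed level of the 10 markers was 37.1, 96.0 and 86.9 CPM in the BRE-positive libraries, against 52.1, 114 and 108 CPM in the BRE-negative libraries. The 8 fibrillar and type VI collagen genes summed to 44.4, 118 and 97.6 CPM in BRE-positive cells, against 72.7, 128 and 125 CPM in BRE-negative cells. All 8 collagens had negative log2 fold changes (median -0.40), and Col1a2 was called lower, at -0.48 ± 0.11 (SE, adjusted p 0.028, edgeR's quasi-likelihood test), as it was without each collection. The Y-linked genes summed to 0.404, 1.13 and 1.32 CPM in BRE-positive cells, against 0.919, 3.37 and 2.88 CPM in BRE-negative cells. Of the 2 Y-linked genes tested, Eif2s3y, a translation factor gene, was called lower at -1.75 ± 0.40 (SE, adjusted p 0.030), which was lost without collection 2 (adjusted p 0.20) and in limma on log2(TPM + 1) (0.33), while DESeq2 gave it no adjusted p. Whether a different share of feeder cells in the fractions accounts for the marker differences was not tested.

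No call fell on the lists of pluripotent cells (9 tested), mesoderm (5), primitive endoderm (9), endothelium (5) or blood (5), in edgeR or DESeq2. Limma called no gene at all, and 1 pluripotent cell gene and 2 primitive endoderm genes had an unadjusted p under 0.05 in edgeR. The pluripotent cell genes summed to 3976 to 4220 CPM in BRE-positive cells and 3985 to 4534 CPM in BRE-negative cells. Their most abundant members over the 12 libraries were Dppa5a, an RNA-binding protein of pluripotent cells, at -0.10 ± 0.05, and Pou5f1, at -0.08 ± 0.05 (log2 fold change ± SE). For mesoderm these were Eomes (0.11 ± 0.13) and Kdr (0.19 ± 0.35), for primitive endoderm Lamb1 (0.05 ± 0.05) and Lama1 (0.11 ± 0.06), for endothelium Pecam1 (0.15 ± 0.07) and Vwf (-0.29 ± 0.15), and for blood Cd68 (0.14 ± 0.11) and Itgam (0.36 ± 0.31). Without collection 1, Pecam1 (0.27, adjusted p 3.6e-05) and Lama1 (0.15, adjusted p 0.022) were called higher and Dppa5a lower (-0.14, adjusted p 0.0090) in edgeR's quasi-likelihood test. The macrophage genes Adgre1 and Csf1r were at 0 to 33 and 2 to 23 counts in the BRE libraries, and at most 2 in the Smad1/5 libraries.

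**Figure D3:**
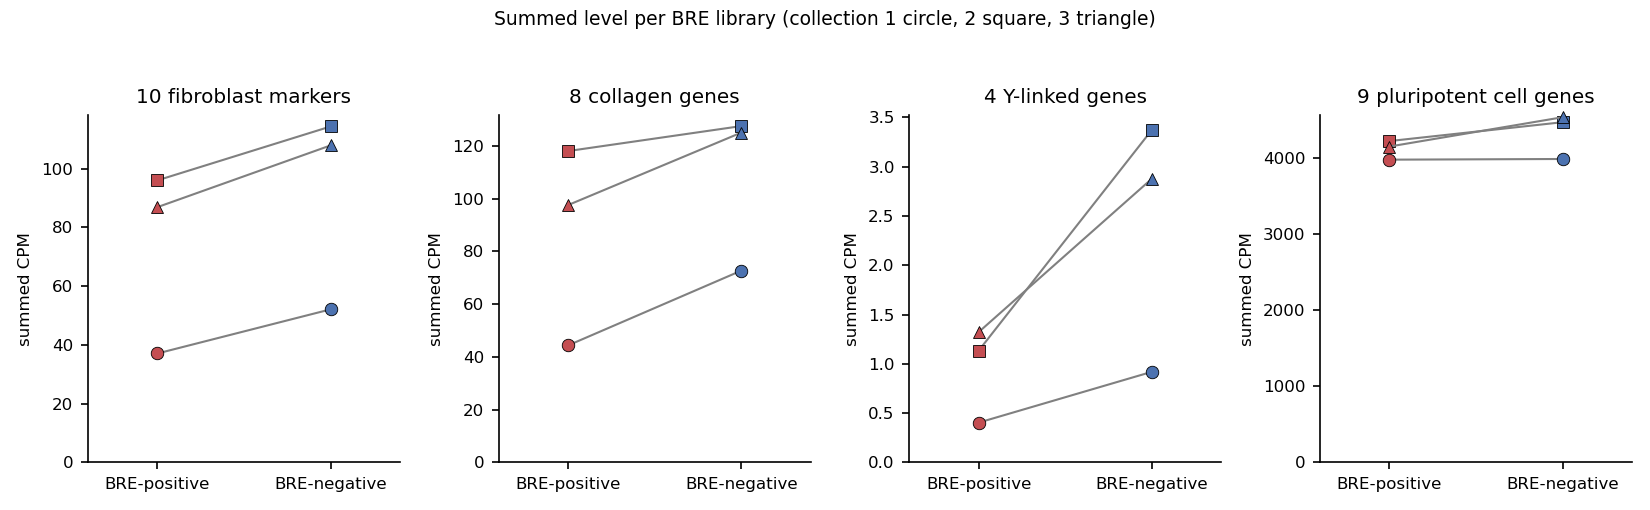
Summed CPM of the 10 markers, 8 collagen genes, 4 Y-linked genes and 9 pluripotent cell genes in each BRE library, with lines joining the BRE-positive and BRE-negative library of a collection. The first 3 sums are lower in the BRE-positive library of each collection, at 37.1 against 52.1 CPM for the markers in collection 1.

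The second comparison set the BRE cultures, on feeders, against the Smad1/5 libraries, on gelatin. Feeders, medium, strain, cell line, genotype and sorting all differ with it and cannot be told apart. The counts of the 2 fractions of a collection were summed, so that n = 3 collections against 4 KO and 2 FL libraries, and the fold change is that of the BRE collections over the mean of both Smad1/5 groups. Of all 16963 genes tested, 63.2% were called, 31.5% higher and 31.7% lower, and markers that are near 0 on gelatin passed the expression filter through the BRE libraries, so that a count of called markers would support nothing.

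Postn had 1138 counts over the 6 BRE libraries, against 3 counts over the 6 Smad1/5 libraries, all 3 in FL library 2. The pooled ratio was 400 (exact 95% counting interval 136 to 1940). Lum had 142 counts, against 1 count in FL library 2 (ratio 150, interval 26.4 to 5949). Acta2 had 624 counts in the BRE libraries, against 2, 0, 2 and 0 in the KO and 1 and 2 in the FL libraries, a ratio of 93.9 (interval 45.3 to 235). The intervals of these 3 genes overlap, so that their order is not resolved. They cover counting error only, and the fitted log2 fold changes of these genes depend on the prior count. Dcn had 2, 1, 2 and 4 counts in the KO and 1 and 6 in the FL libraries, for a pooled ratio of 30.0 (interval 18.3 to 53.0).

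FL library 2 thus held the only Postn and Lum counts and the most Dcn of any Smad1/5 library, and it was also the highest of them for Col3a1 (8 counts), Bgn (4) and Lox (4), fibroblast genes with at most 1 count in each other Smad1/5 library. These genes were looked up after the Postn counts had been seen. Col1a2 was also highest in FL library 2 (14 counts, against 2 to 7 elsewhere on gelatin), as was Tagln (16, against 7 to 13). The same held for S100a4 (5 counts, against 0) and Prrx1 (4, against at most 1), and for Thbs1 and Tnc in CPM. Col1a1, Fbln2, Fbn1, Loxl1 and Thy1 were not highest there. FL library 2 had 44 Col1a1 counts, against 93 in FL library 1, and 148 Fbln2 counts, against 230. Its 74 Thy1 counts were the fewest of any Smad1/5 library. A few fibroblast reads in FL library 2 were not tested as the source of its Postn, Lum, Dcn, Col3a1, Bgn, Lox, Col1a2, S100a4 and Prrx1 counts.

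The remaining markers had 7 or more counts in every library grown without feeders, though low Tagln counts may hold reads of the opposite-strand genes named above. Tagln had 7, 8, 13 and 7 counts in the KO and 11 and 16 in the FL libraries, and rose in the BRE collections by 4.16 ± 0.39 (SE, log2, adjusted p 5.4e-06). Fbln2 rose by 3.15 ± 0.30 (adjusted p 6.0e-06), Loxl1 by 2.98 ± 0.21 (adjusted p 9.5e-07), Fbn1 by 2.14 ± 0.28 (adjusted p 7.1e-05) and Thy1 by 1.27 ± 0.17 (adjusted p 8.8e-05), all from edgeR's quasi-likelihood test. Thy1 was at 5.19 to 7.93 CPM in the BRE libraries, against 2.01 to 3.37 CPM on gelatin, so that the higher level on feeders was 2.41-fold.

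Twist1 did not separate the cultures. It was at 1.17 to 2.13 CPM (41 to 68 counts) in the BRE libraries, against 1.42 to 1.96 CPM (42 to 69 counts) on gelatin, and its log2 fold change was -0.02 ± 0.20 (SE, adjusted p 0.93, edgeR's quasi-likelihood test). The pooled ratio of 0.995 had a counting interval of 0.853 to 1.16. A higher level in the cultures on feeders, as the name feeder fibroblast marker implies, was thus not seen for Twist1. Thy1, Fbn1 and Fbln2 were higher there but not confined to them, with 74 to 120, 70 to 162 and 63 to 230 counts in the Smad1/5 libraries. Loxl1 (7 to 34 counts) and Tagln (7 to 16) were also counted in the Smad1/5 libraries. Which cells the RNA of these genes came from was not tested. For comparison, Col3a1, a type III collagen gene, had 136 to 561 counts in the BRE libraries, against 0 to 8 on gelatin, and Col1a2 had 261 to 1199, against 2 to 14. Not all collagen genes were as low on gelatin: Col1a1 had 151 to 699 counts in the BRE libraries, against 27 to 93. Col5a1 was at 13.1 to 22.7 CPM in the BRE libraries, against 10.7 to 21.4 CPM on gelatin.

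**Figure D4:**
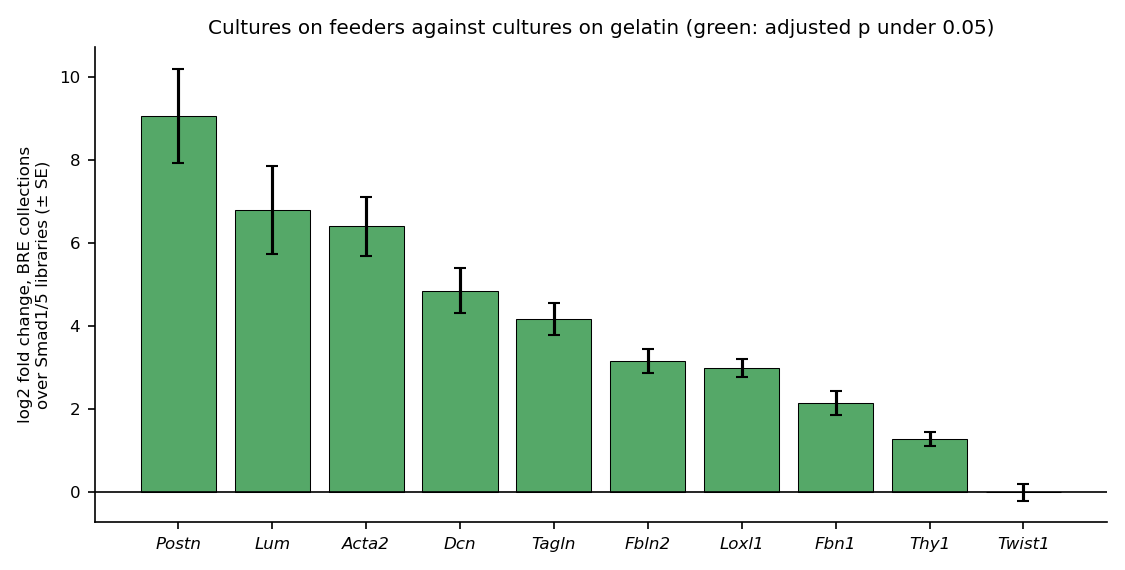
Log2 fold change of each marker, BRE collections on feeders over Smad1/5 libraries on gelatin, with its SE from edgeR. The bars run from 9.07 for Postn to 1.27 for Thy1, with Twist1 at -0.02, and those of Postn, Lum and Acta2 depend on the prior count because the Smad1/5 libraries held 3, 1 and 7 counts.

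The third comparison asked whether loss of Smad1 and Smad5 moved the markers in cells without feeders. Loxl1 was called lower in KO cells, and no other marker was called. Postn, Lum, Acta2 and Dcn, all at 6 counts or fewer in every library, did not pass the expression filter, which left 6 markers tested. Of all 15933 genes tested in edgeR, 5.03% were called, 3.18% lower and 1.85% higher.

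Loxl1 had 10, 7, 10 and 8 counts in the KO libraries, against 34 and 28 counts in the FL libraries. The means were 0.269 ± 0.058 CPM in KO cells (SD, n = 4) and 0.884 ± 0.176 CPM in FL cells (SD, n = 2), and the log2 fold change was -1.71 ± 0.34 (SE, adjusted p 0.034, edgeR's quasi-likelihood test). The call was kept without KO library 1 (adjusted p 0.038) and lost without each other library: 0.28 without FL library 1, 0.10 without FL library 2, and 0.059, 0.084 and 0.086 without KO libraries 2, 3 and 4. In the BRE libraries Loxl1 was at 3.14 to 5.27 CPM, above every Smad1/5 library.

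Fbln2 had 76, 170, 106 and 63 counts in the KO libraries, against 230 and 148 counts in the FL libraries, which overlap, and its log2 fold change was -0.80 ± 0.34 (SE, adjusted p 0.21, edgeR's quasi-likelihood test). Twist1 had 1.42, 1.54, 1.84 and 1.49 CPM in the KO libraries, against 1.96 and 1.87 CPM in the FL libraries. Its log2 fold change of -0.28 ± 0.22 (SE) had an adjusted p of 0.49 in edgeR's quasi-likelihood test. Tagln (-0.52 ± 0.39), Fbn1 (-0.23 ± 0.32) and Thy1 (0.30 ± 0.22) did not pass either (log2 fold change ± SE). These tests treat all 4 KO libraries as separate samples, but each parental line gave 2 of them.

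Of 13 other elastic fibre genes tested, 2 were called lower in KO cells: Loxl2, another lysyl oxidase, at -2.51 ± 0.56 (SE, adjusted p 0.046), and Ltbp3, a binding protein of latent TGF-beta, at -2.10 ± 0.39 (SE, adjusted p 0.029, edgeR's quasi-likelihood test). Loxl2 was at 0.474, 0.309, 0.0825 and 0.132 CPM in the KO libraries, against 1.90 and 0.950 CPM in the FL libraries. Ltbp3 was at 0.508, 1.01, 0.385 and 0.364 CPM in the KO libraries, against 2.58 and 2.36 CPM in the FL libraries. Without FL library 1 neither passed (adjusted p 0.36 and 0.19), nor without FL library 2 (0.093 and 0.10), KO library 3 (0.095 and 0.072) or KO library 4 (0.11 and 0.071), and Loxl2 also failed without KO library 2 (0.074). Of 18 matricellular genes tested, Serpinf1 was called lower, at -1.82 ± 0.33 (SE, adjusted p 0.026), which was lost without FL library 1 (0.16), FL library 2 (0.11) or KO library 3 (0.072). Of 7 fibroblast surface genes tested, Axl, a receptor tyrosine kinase, was called higher, at 1.24 ± 0.28 (SE, adjusted p 0.049), which was kept without KO library 2, had adjusted p of 0.063 to 0.33 without each other library, and was lost with RLE scaling (0.0502) and a filter at 1 CPM (0.056). Of 12 smooth muscle genes tested, none was called by edgeR or limma (4 at an unadjusted p under 0.05 in edgeR), and DESeq2 called Tagln2 lower (adjusted p 0.038). Their most abundant over the 12 libraries were Tagln2, at -0.24 ± 0.06, and Tpm4, at -0.22 ± 0.07 (log2 fold change ± SE).

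Levels of different genes were set side by side on the deposited TPM scale, which divides by length and holds 1 added count. In the 6 BRE libraries the order of mean TPM was Thy1 (10.6 ± 2.91), Fbln2 (10.4 ± 4.06), Tagln (10.2 ± 5.50), Acta2 (5.24 ± 4.10), Dcn (3.39 ± 1.95), Loxl1 (3.23 ± 0.716), Twist1 (3.00 ± 0.752), Fbn1 (2.86 ± 1.11), Postn (1.41 ± 0.963) and Lum (1.09 ± 0.787), each ± SD (n = 6), and the range of each overlapped that of its neighbour. In the 6 Smad1/5 libraries Thy1 (4.48 ± 0.650) and Twist1 (2.90 ± 0.449) led, with ranges that overlapped each other, and Twist1 did not overlap Fbln2, the third at 1.08 ± 0.478 TPM (SD, n = 6). Acta2 was at 0.098 ± 0.045, Lum at 0.045 ± 0.014 and Postn at 0.0096 ± 0.0073 TPM (SD, n = 6), which is close to the level of the added count. Twist1, which was seventh in the BRE libraries, was thus second in the Smad1/5 libraries at nearly the same level.

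Across the 6 BRE libraries, which are 3 pairs, the Pearson r of log2 CPM over the 45 pairs of markers lay between 0.347 and 0.997 (median 0.854). The r with the mean of the standardised markers was 0.987 for Fbln2, 0.985 for Postn and 0.979 for Tagln, 0.852 for Loxl1, 0.841 for Twist1 and 0.582 for Thy1. That mean includes the marker itself, which raises its r, so that these values do not compare with those of other genes. Among 12963 other genes, the 10 most like that mean were Slc4a5 (r = 0.997), Efnb2, Tubb3, Trim16, Igfbp3, Crabp1, Armc5, AI662270, Ccl2 and Nploc4 (r = 0.989). The libraries share collections, so that genes which differ between collections for any reason can rank high, and no test was made. Of the 10, Ccl2, a chemokine gene, was near 0 in the Smad1/5 libraries like Postn and Acta2 (mean 0.0094 CPM, beside 1.38 CPM in the BRE libraries). Slc4a5, a bicarbonate transporter gene, had a mean of 1.65 CPM in the BRE libraries, against 85.2 CPM on gelatin.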

How the data were processed

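Sample titles gave the groups and replicate numbers. Total RNA was depleted of ribosomal RNA and made into stranded libraries, per the labels' protocols. The submitters' processing notes name STAR 2.4.1d, featureCounts 1.4.6, CASAVA 1.8.2, DESeq2 1.6.3 and FastQC 0.11.3, and the builds GRCm38.p4 and mm10. The strand setting and annotation release were not given in the sources used here. The authors deposited raw counts of 39179 genes and a TPM table, a normalised signal by the authors that equals (count + 1) per length, scaled per library, over 38310 genes. Coordinates came from GENCODE M21.

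Counts were tested as deposited with edgeR 4.0.16 (R 4.3.3): quasi-likelihood fit, TMM scaling, expression filter (minimum count 10, total 15), Benjamini-Hochberg over all genes and a threshold of 0.05. The BRE fit had the pair as a block, as the series states paired collection, and same-numbered BRE libraries deviated together across genes (r = 0.712, 0.589 and 0.529). The KO fit had none. Each SE was derived from a fold change and its F statistic. As separate cultures are not described, p-values reflect only the spread among these libraries. Alternatives were DESeq2 1.42.0, RLE scaling, other count filters, a length offset, all 12 libraries in 1 fit, limma 3.58.1 on log2(TPM + 1) or log2(TPM + 0.1), other uses of the block, and each library or collection left out. Counting intervals are exact at 95% and cover counting error only.

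The 10 markers and the 13 other lists (139 genes) were chosen with earlier results of these data known. All markers are named. Of each other list whose count is given, up to 4 called genes with the largest change are named, or the 2 most abundant over the 12 libraries where none was called, and the 10 genes most like the markers. Ddx3y, the macrophage genes, Col3a1 in FL library 2, Fbln1 across cultures and other genes outside this rule were picked with their values known.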

Additional observations from a re-analysis of the deposited data

Results flagged for a closer look

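Within the 4 KO libraries, Tagln stood apart in library 3, at 0.358 CPM (13 counts) beside 0.225 to 0.237 CPM (7 or 8 counts) in the other 3, a gap large for the group's range by Dixon's ratio. Such a gap is met by chance in about 1 of 20 groups, and 8 groups were looked at, the markers with any count in the KO libraries. Without that library the KO to FL difference of Tagln was -0.72 (log2), beside -0.52 with it, and did not pass in either case (adjusted p 0.40 and 0.46, edgeR's quasi-likelihood test).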

How the results depend on the processing

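For BRE-positive against BRE-negative cells, the 3 markers called became 5 without a count filter (Dcn and Postn added), and 0 with all 12 libraries in 1 fit, without the replicate block or in limma on log2(TPM + 1), unfiltered or for genes of mean TPM at least 1, or on log2(TPM + 0.1). The 459 genes called became 1010, 0, 0, 0, 0 and 42 under those settings in that order, and 280 with a length offset. Unadjusted p lay under 0.05 for 516 genes with all 12 libraries, 343 without the block, and 4189 and 2679 in limma on log2(TPM + 1) without and with the filter. Leaving out a collection gave 3 to 4 markers and 200 to 2225 genes. For KO against FL, Loxl1 was called in 6 of 13 alternatives, and no marker with a filter at 1 CPM, which removed it, limma on log2(TPM + 0.1), limma at a mean TPM of 1, or the replicate block on libraries numbered 1 and 2. The 801 genes called became 1498 with DESeq2, 360, 198 and 136 in limma on log2(TPM + 1) without and with the filter and on log2(TPM + 0.1), and 0 with the replicate block (2479 at an unadjusted p under 0.05). Leaving out a library gave 0 to 1 markers and 0 to 857 genes, the 0 without FL library 1 (1948 unadjusted). The deviations could not decide whether KO and FL numbers pair, since those of 2 FL libraries mirror each other. KO library 1 correlated at 0.263 with FL library 1 and -0.263 with FL library 2, and KO library 2 at 0.424 and -0.424. For the cultures, 7 to 9 markers and 7935 to 11594 genes were called, beside 63.2% of all genes tested in the main fit. As said above, this count of markers supports nothing. It fell below 9 only where a filter removed Lum or Postn.

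Directions that turned were all of uncalled values, given here as log2 fold changes. Between fractions, Twist1 ranged from -0.31 to 0.022 with a collection left out, Prrx2 from -0.20 to 0.020, Cd68 from -0.038 to 0.25 and Kdr from -0.060 to 0.48. In limma on log2(TPM + 0.1), on log2(TPM + 1) and on that scale with its filter, Prrx2 gave 0.030, 0.018 and 0.018, and Pou5f1 0.014, 0.014 and 0.014. Lamb1 gave -0.0037 with the length offset. Between cultures, Twist1 gave 0.0021 with a filter at 1 CPM, 0.0025 without a filter and -0.13 to 0.15 with a collection or library left out. The cause of these differences was not tested. Lum could not be fitted between cultures at the stricter filters or without collection 2 or 3. Depth limits Lum, Postn, Acta2 and Dcn in the Smad1/5 libraries, where a few counts decide their level.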
